A study of Mus musculus with 12 samples.

Results

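Red blood cells carry RNA into every tissue that is collected with its blood vessels, and the globin genes they use change during gestation. The genes described here are 3 embryonic globins (Hba-x, Hbb-y and Hbb-bh1) and 4 genes of the red cell itself (Alas2, Slc4a1, Epb42 and Ahsp), a list of 7 in all. They were matched by gene symbol to the array's annotation, with older symbols updated, so that the entry named Epb4.2 stands for Epb42. Of the 7 genes 6 had a transcript cluster of their own, the array's unit for 1 locus, among the 65956 clusters tested, and each had only 1. Ahsp is not analysed here.

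Mouse fetal gonads were collected at 14.5 days post coitum and their RNA was read on the Affymetrix Mouse Transcriptome Array 1.0, with 12 arrays in 3 groups of 4. Each array held 1 pair of gonads, cut free of the mesonephros, and the strain was a mix of 129Sv and C57Bl/6J. XY control and XX control gonads were Rosa26+/+; Sf1-Cre+/Tg. XY FOXL2+ gonads carried Rosa26-CAG-LSL-Foxl2+/f together with Sf1-cre+/Tg, which means that Cre made under the Sf1 promoter removes a stop cassette and lets a CAG promoter drive Foxl2 in the somatic cells of the gonad. The Sf1-Cre transgene was thus shared by all groups. No litter, exact hour or bleeding step is given in the sources used here. Fewer red cells in a gonad and less RNA per red cell cannot be told apart in such whole-organ samples.

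In the mouse the first red cells arise in the yolk sac and fill with embryonic globins: zeta globin from Hba-x pairs with the beta-like chains from Hbb-y and Hbb-bh1. Red cells made later in the fetal liver use the adult alpha and beta genes. At midgestation both kinds circulate, and the embryonic share declines as fetal liver cells take over. Alas2 makes the first enzyme of heme synthesis in red cells, Slc4a1 the anion exchanger band 3, and Epb42 the protein 4.2 that ties band 3 to the membrane skeleton.

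Of the 6 genes 4 have a promoter in the RefSeq table of build GRCm38.p6, which is not tied to the build of the array. The 250 bases before the start are shown for them because the results below are given for an embryonic and a red cell set, and such promoters are known to be read by the factors GATA1 and KLF1. Letters are 5′ to 3′ on the strand of the gene, and capitals mark 3 motifs in either orientation. They are GATAA (the core bound by GATA factors), CACCC (the core bound by KLF factors) and the CCAAT box, and both strands were searched. Matches touch in places but do not overlap here.

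Hba-x, chr11:32276350-32276599, + strand: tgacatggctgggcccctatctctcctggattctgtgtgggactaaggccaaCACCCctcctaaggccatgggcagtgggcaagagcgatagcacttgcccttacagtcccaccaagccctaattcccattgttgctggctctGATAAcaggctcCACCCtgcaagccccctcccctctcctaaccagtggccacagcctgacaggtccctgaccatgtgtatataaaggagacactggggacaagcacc

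Hbb-y, chr7:103853208-103853457, - strand: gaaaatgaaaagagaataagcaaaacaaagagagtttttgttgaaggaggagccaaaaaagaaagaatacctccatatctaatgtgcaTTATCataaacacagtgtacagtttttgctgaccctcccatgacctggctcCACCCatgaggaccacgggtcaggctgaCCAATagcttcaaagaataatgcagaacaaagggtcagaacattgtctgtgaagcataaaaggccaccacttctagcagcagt

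Alas2, chrX:150547167-150547416, + strand: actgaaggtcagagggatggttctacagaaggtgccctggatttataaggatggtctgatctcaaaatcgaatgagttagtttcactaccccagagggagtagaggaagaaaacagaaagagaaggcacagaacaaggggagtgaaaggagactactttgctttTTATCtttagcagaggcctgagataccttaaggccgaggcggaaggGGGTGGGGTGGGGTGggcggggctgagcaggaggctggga

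Epb42, chr2:121036878-121037127, - strand: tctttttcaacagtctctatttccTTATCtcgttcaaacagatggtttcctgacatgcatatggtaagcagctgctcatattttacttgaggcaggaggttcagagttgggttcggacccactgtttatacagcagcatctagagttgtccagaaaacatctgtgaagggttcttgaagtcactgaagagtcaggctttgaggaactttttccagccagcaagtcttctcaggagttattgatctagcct

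All 4 windows hold GATAA once, on one strand or the other. It is held by 22.6% of the 32851 promoter windows of this length from RefSeq. CACCC stands in the Hba-x window at 2 places, in the Hbb-y window at 1 and in the Alas2 window at 3, and 52.0% of all windows hold it. CCAAT stands only in the Hbb-y window of these 4, against 33.8% of all windows. These matches describe the letters, not binding.

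Values are the deposited signals per cluster, taken as log2, and array medians lay between 6.15 and 6.30. The groups followed their labels on all 12 arrays in Xist and in Kdm5d, Eif2s3y and Uty, which lie on the Y chromosome. Foxl2 read 7.67, 8.62, 7.18 and 6.72 in XY FOXL2+ replicates 1 to 4, against 5.07 to 5.55 in XY controls. Gonad markers were present in every group: Nr5a1 (Sf1) averaged 13.39 in XY controls, 11.71 with the FOXL2 transgene and 12.15 in XX controls, and the germ cell gene Ddx4 14.37, 14.21 and 14.78. The XY FOXL2+ arrays were not uniform. On the first principal component over all clusters (51.5% of the variance) replicates 1 and 2 lay at -20.3 and -39.1 and replicates 3 and 4 at 21.3 and 23.1, between XX controls (-61.6 to -55.8) and XY controls (59.9 to 66.3). Replicate 1 stood apart on the second component (76.9 against -22.6 to 22.1) and replicates 3 and 4 on the third (49.7 and 44.2 against -35.6 to 12.7). The level at which a silent cluster reads is not given: in XX controls Uty, Kdm5d and Eif2s3y averaged 6.24, 6.27 and 5.99, so the level near 6 alone does not show that a gene is expressed.

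None of the 6 genes passed the test in any of the 3 comparisons (limma, adjusted p under 0.05). Over all clusters 7.12% passed between XY FOXL2+ and XY controls (2.46% higher and 4.67% lower). The share was 17.4% between XX and XY controls (7.17% higher and 10.2% lower) and 5.51% between XY FOXL2+ and XX controls (2.87% higher and 2.64% lower). Quantile normalization moved the higher and lower clusters from 1621 and 3077 to 2184 and 2656 in the first comparison, and from 4727 and 6732 to 6116 and 5385 in the second. The share of all clusters with an unadjusted p under 0.05 was not counted, so counts at that threshold, here and below, cannot show an excess. At that threshold the numbers were 0, 1 and 2 of 6 genes in the same order. Their median differences were 0.04, 0.25 and 0.11, where those of all clusters were 0.003, -0.033 and 0.032. The genes differed in which arrays were high. The embryonic globins read high in XX controls and low on replicates 3 and 4 of both XY groups, while Alas2, Slc4a1 and Epb42 varied most within XY FOXL2+.

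**Figure D1:**
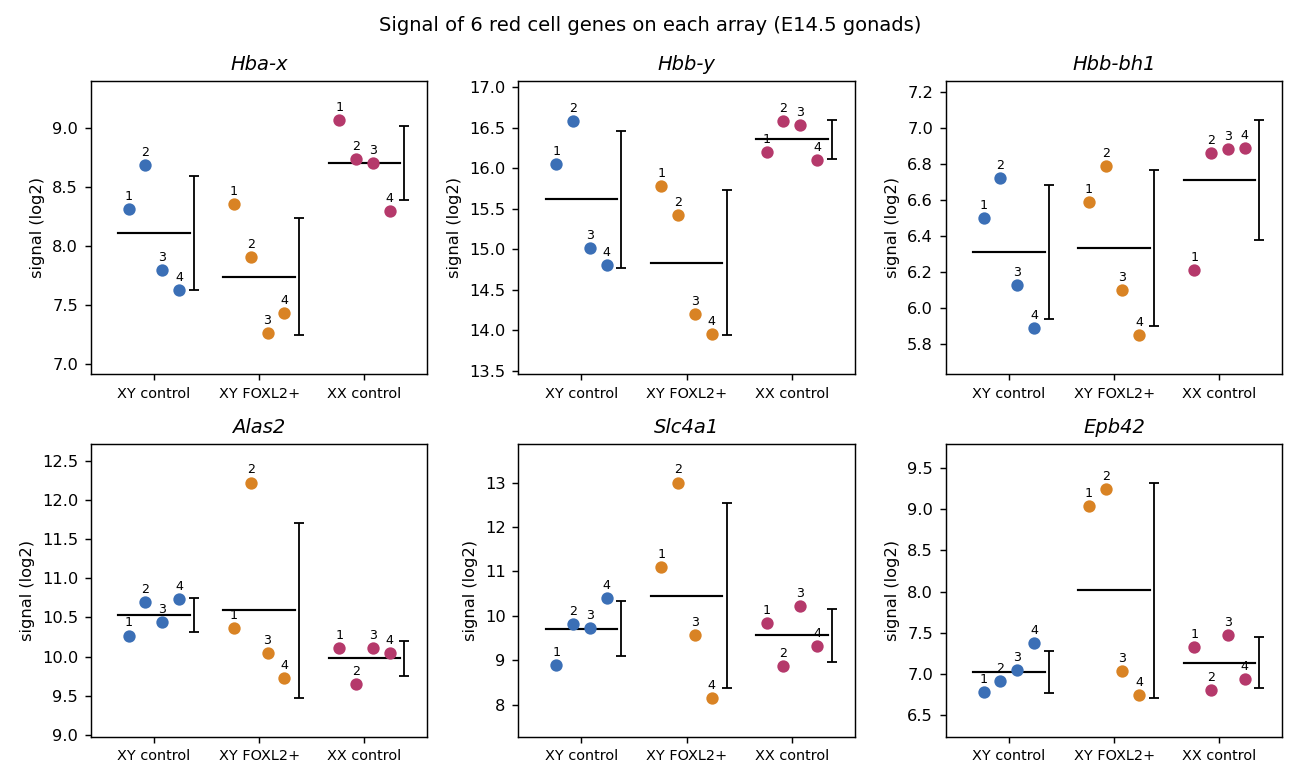
Signal (log2) of the 6 genes on each of the 12 arrays, with the replicate number beside each point, the group mean as a line and the SD (n = 4) as a bar. Embryonic globins (upper row) are lowest on XY replicates 3 and 4 with and without FOXL2, and Slc4a1 runs from 8.15 to 13.00 within XY FOXL2+.

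Hbb-y, the epsilon-y globin of yolk sac red cells, read 16.06, 16.59, 15.02 and 14.81 in XY control replicates 1 to 4. It read 15.78, 15.42, 14.20 and 13.95 with the FOXL2 transgene, while XX controls read 16.20, 16.59, 16.54 and 16.11. In both XY groups replicates 1 and 2 lay above replicates 3 and 4, although the labels do not tie arrays of the same number to each other. The XX arrays were close together, with a range of 0.47, where XY controls spanned 1.78 and XY FOXL2+ 1.83.

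Every XY FOXL2+ array was below every XX array in Hbb-y, a difference of -1.52 (SE 0.43, 95% interval -2.46 to -0.58, 2.86-fold lower). That difference did not pass over all clusters (adjusted p = 0.0636), and the exact permutation test of 4 against 4 arrays gave its smallest two-sided p, 0.0286. Groups that do not overlap in this direction made up 4.82% of all clusters. Between XY FOXL2+ and XY controls the groups overlapped (-0.78, SE 0.43, interval -1.72 to 0.16, adjusted p = 0.355). XX and XY controls overlapped as well (0.74, SE 0.43, interval -0.20 to 1.68, adjusted p = 0.314).

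Hba-x, the zeta globin that takes the alpha position in embryonic hemoglobin, followed the same order of groups. Its signal was 8.31, 8.69, 7.80 and 7.63 in XY controls, 8.36, 7.91, 7.26 and 7.43 with the FOXL2 transgene, while XX controls read 9.07, 8.74, 8.70 and 8.30. XY FOXL2+ replicate 1 lay just above the lowest XX array, so the groups touched. The difference between XY FOXL2+ and XX controls was -0.97 (SE 0.27, interval -1.55 to -0.38, 1.95-fold lower), with an adjusted p of 0.0569 and an exact permutation p of 0.0571. Against XY controls XY FOXL2+ read -0.37 apart (SE 0.27, adjusted p = 0.506), and XX controls 0.60 above XY controls (SE 0.27, adjusted p = 0.167). The latter passed with array weights (0.62, adjusted p = 0.0488), and over the other fits without a replicate block its adjusted p ran from 0.0669 to 0.364.

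The comparison of XY FOXL2+ with XX controls in these 2 globins sits at the edge of the threshold. Without XY FOXL2+ replicate 1 both passed (Hbb-y -1.83, adjusted p = 0.0232, and Hba-x -1.17, 0.0172), as they did without XY control replicate 2 (0.0465 and 0.0433). Without XY FOXL2+ replicate 2 Hbb-y passed (-1.71, 0.0401) and Hba-x did not (-1.02, 0.0548). With a filter that keeps only clusters above the median signal both passed too (0.0459 and 0.0403).

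Hbb-bh1, the beta-h1 globin of the earliest red cells, gave a weak signal of 5.85 to 6.89, close to the Y-linked clusters in XX gonads and above the array's background probe sets, whose medians were 3.99 to 4.17. Its values were 6.50, 6.72, 6.13 and 5.89 in XY controls, 6.59, 6.79, 6.10 and 5.85 with the FOXL2 transgene, while XX controls read 6.21, 6.86, 6.88 and 6.89. The low arrays were again replicates 3 and 4 of both XY groups, together with XX control replicate 1. Its differences were 0.02 (XY FOXL2+ minus XY control, adjusted p = 0.975), 0.40 (XX minus XY control, 0.307) and -0.38 (XY FOXL2+ minus XX control, 0.433), each with an SE of 0.23.

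**Figure D2:**
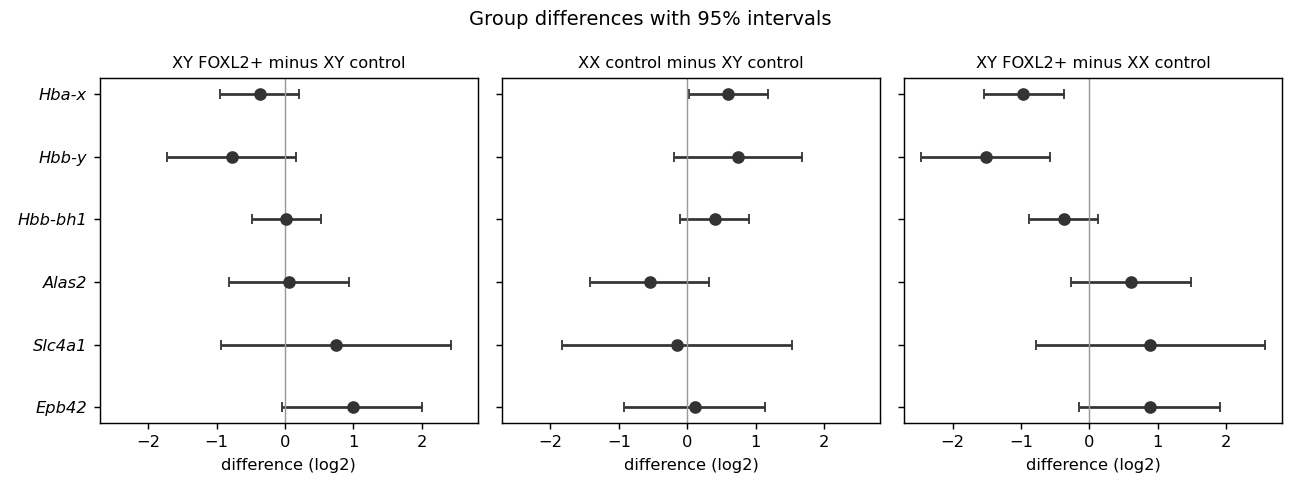
Difference between groups (log2, points) with its 95% interval (bars) for each of the 6 genes in the 3 comparisons, from 1 fit over 12 arrays. The widest intervals are those of Slc4a1, from -0.93 to 2.43 for XY FOXL2+ minus XY control.

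Among the genes of the red cell proper, Slc4a1 had the widest spread. It read 8.89, 9.82, 9.73 and 10.39 in XY controls and 9.84, 8.86, 10.23 and 9.31 in XX controls. In XY FOXL2+ it read 11.09, 13.00, 9.56 and 8.15, a 28.9-fold range that took in both the highest and the lowest of the 12 arrays. The mean of XY FOXL2+ was 0.75 above XY controls (SE 0.78, interval -0.93 to 2.43, adjusted p = 0.661) and 0.89 above XX controls (SE 0.78, adjusted p = 0.607). Without XY FOXL2+ replicate 2 the difference from XY controls was -0.10. With array weights it was 0.08, and without replicate 4 it was 1.51 (adjusted p = 0.207).

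Epb42 separated the XY FOXL2+ arrays into pairs. Replicates 1 and 2 read 9.04 and 9.24, and replicates 3 and 4 read 7.03 and 6.75, near the controls. XY controls read 6.78, 6.91, 7.05 and 7.37, and XX controls 7.33, 6.81, 7.47 and 6.94. The difference between XY FOXL2+ and XY controls was 0.99 (SE 0.47, interval -0.04 to 2.01, adjusted p = 0.272), and XX and XY controls lay 0.11 apart (SE 0.47, adjusted p = 0.927). The difference from XY controls was 0.45 with array weights, 0.64 without XY FOXL2+ replicate 1 and 0.58 without replicate 2, and it did not pass in any of these fits.

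Alas2 was high on a single array, XY FOXL2+ replicate 2, at 12.22, with 10.36, 10.05 and 9.73 on the other arrays of that group. XY controls read 10.27, 10.70, 10.44 and 10.73 and XX controls 10.11, 9.65, 10.11 and 10.05, so that every XX array was below every XY control. The difference was -0.55 (SE 0.40, interval -1.42 to 0.32, exact permutation p = 0.0286, adjusted p = 0.44), and 14.8% of all clusters had XX arrays below all XY controls in this way. The spread of XY FOXL2+ enters that test: in a fit on the control groups alone Alas2 passed (adjusted p = 0.0126), as it did without XY FOXL2+ replicate 2 (0.0301). Between XY FOXL2+ and XY controls the difference was 0.06 (SE 0.40, adjusted p = 0.962), and -0.49 without replicate 2.

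Correlations over the arrays were highest inside these sets. Of 15 pairs tested over 12 arrays 4 passed by Pearson's r after Benjamini-Hochberg adjustment over the pairs. Hba-x and Hbb-y had r = 0.94 (permutation p = 2e-05, adjusted p = 0.00015) and rho = 0.90 (p = 0.00023). Without the 2 arrays farthest from the median, XY FOXL2+ replicates 3 and 4, r was 0.90, and with group means removed it was 0.88. Hbb-y and Hbb-bh1 had r = 0.81 (permutation p = 0.00172, adjusted p = 0.00645) and rho = 0.76 (p = 0.00592), and r = 0.72 without the same 2 arrays.

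Slc4a1 and Epb42 had r = 0.91 and rho = 0.94, each with a permutation p of 1e-05, the smallest the resampling can give, and r = 0.87 without XY FOXL2+ replicates 2 and 4. Alas2 and Slc4a1 had r = 0.88 (permutation p = 0.00131, adjusted p = 0.00645) and rho = 0.76 (p = 0.0063). This pair dropped to r = 0.59 without XY control replicate 4 and XY FOXL2+ replicate 2. No pair of an embryonic globin with a red cell gene passed, and their r ran from -0.14 to 0.29. With group means removed the r of all these pairs were positive, from 0.24 (Hba-x and Alas2) to 0.56 (Hbb-y and Epb42), so that within groups the sets were not separate. Within-group r was 0.52 to 0.88 among the embryonic globins and 0.77 to 0.92 among the red cell genes.

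**Figure D3:**
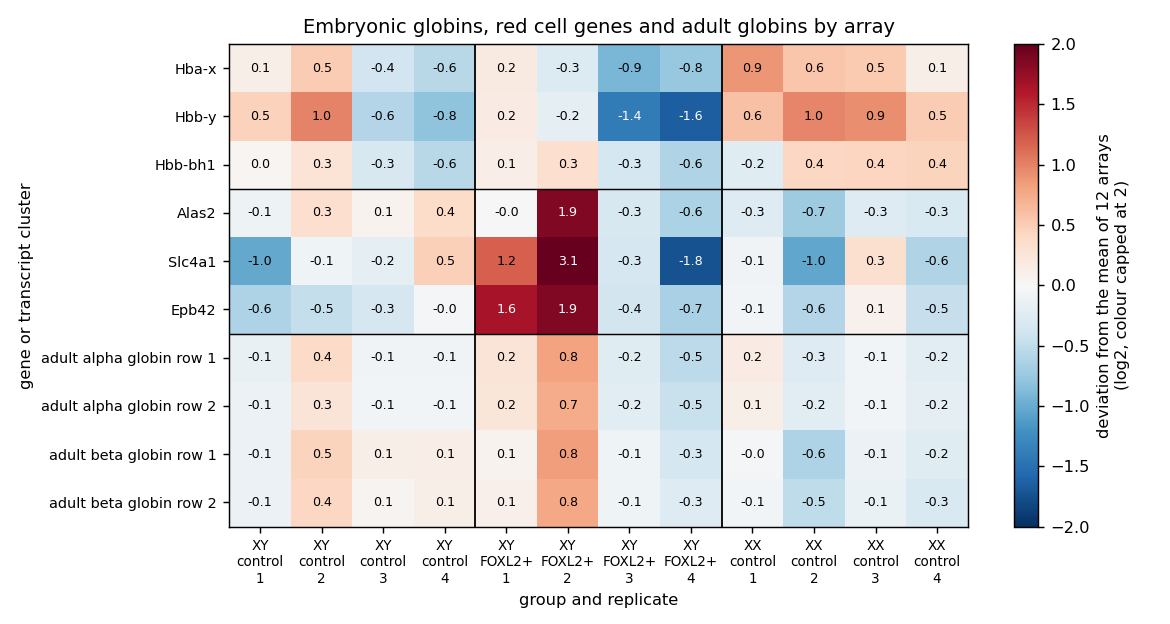
Deviation of each array (columns, by group and replicate) from the mean of the 12 arrays, in log2, for the 3 embryonic globins, the 3 red cell genes and 4 adult globin clusters (rows). XY FOXL2+ replicate 2 is the highest array for Slc4a1, Alas2, Epb42 and all adult globin clusters but not for the embryonic globins.

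The adult globins give the measure of red cell content that does not belong to the list. They are read by 4 clusters, each annotated to several near-identical genes: 2 to both Hba-a1 and Hba-a2 (alpha) and 2 to the adult beta genes Hbb-bs, Hbb-bt, Hbb-b1 and Hbb-b2, so none stands for 1 gene. None of the 4 passed in any comparison. The brighter alpha cluster read 17.64 ± 0.24 in XY controls and 17.69 ± 0.59 with the FOXL2 transgene, while XX controls read 17.53 ± 0.19 (SD, n = 4). The brighter beta cluster read 16.92 ± 0.23, 16.89 ± 0.51 and 16.52 ± 0.26 in the same order. The adult signals lie near the top of the array's range, which ends at 19.49, and compression there was not tested. Slc4a1 followed the brighter alpha cluster over the 12 arrays with r = 0.88 and Alas2 the brighter beta cluster with r = 0.93, whereas Hbb-y had r = 0.33 and -0.02 with the 2 clusters. With group means removed these values were 0.90 for Slc4a1, 0.92 for Alas2, and 0.67 and 0.45 for Hbb-y, so that Hbb-y also followed adult globin to some degree within groups. These are descriptions over 12 arrays.

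Set against adult globin of the same array, embryonic globin was highest in XX gonads. These differences are given relative to the mean of XY controls and were not tested, since they combine chosen genes. Hba-x minus the brighter adult alpha cluster was 0.37, 0.23, -0.22 and -0.38 in XY controls, 0.03, -0.99, -0.58 and -0.13 with the FOXL2 transgene, while XX controls read 0.83, 0.92, 0.67 and 0.43. Every XX array was above every XY array of either genotype. How many such differences between clusters would be apart in this way was not counted. Of single clusters 10.5% had every XX array above every XY control. Hbb-y minus the brighter adult beta cluster gave the same order, with 0.70, 0.66, -0.56 and -0.80 in XY controls, 0.24, -0.89, -1.19 and -1.17 with the FOXL2 transgene, while XX controls read 0.76, 1.73, 1.17 and 0.89. In both, the lowest XX array was barely above the highest XY array (0.43 against 0.37 for Hba-x, 0.76 against 0.70 for Hbb-y).

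Within XY controls replicates 1 and 2 were above replicates 3 and 4 in both differences, as they were in the embryonic globins themselves. For Hbb-bh1 minus the adult beta cluster XX arrays ran from 0.08 to 1.32, XY controls from -0.40 to 0.44 and XY FOXL2+ from -0.21 to 0.36, and the groups overlapped. The embryonic share of globin RNA is known to decline with embryo age. No measured stage of single embryos is given in the sources used here, and the part of stage in these values was not tested.

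**Figure D4:**
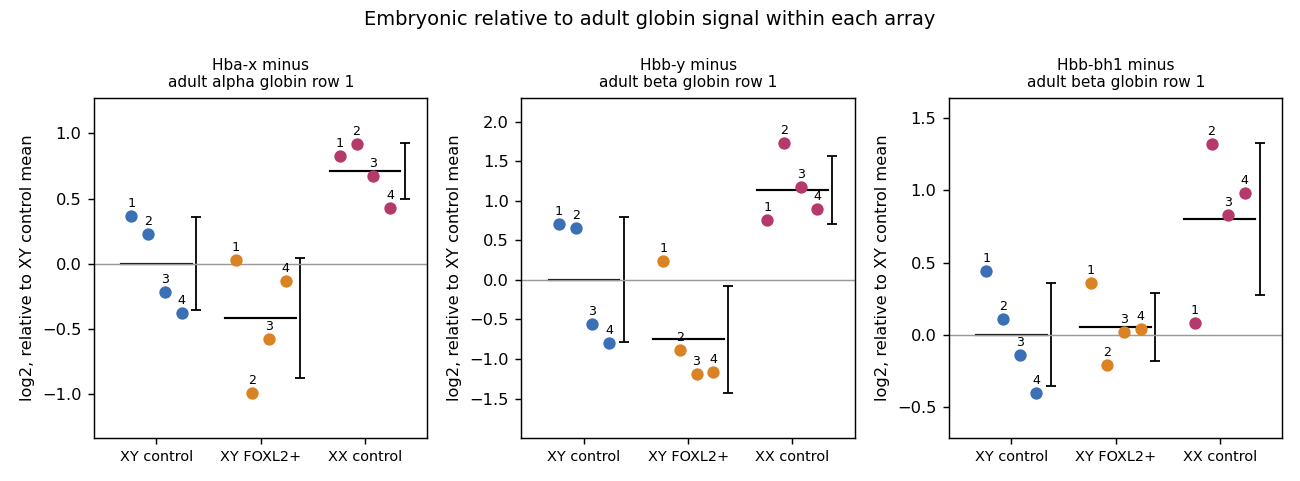
Embryonic globin signal minus the brighter adult globin cluster of the same chain on each array (log2, relative to the mean of XY controls), with replicate numbers, group means (lines) and SD (bars, n = 4). XX controls lie above all XY arrays for Hba-x (0.43 to 0.92) and Hbb-y (0.76 to 1.73), and overlap them for Hbb-bh1. The highest XY arrays are close below, at 0.37 for Hba-x and 0.70 for Hbb-y.

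The other genes of the red cell were counted from 5 lists with 63 measured genes in all. Apart from the globin switching regulators, the list means split XY FOXL2+ into the same pairs of arrays as Slc4a1 and Epb42. The switching regulators averaged 9.51 on replicate 1, and 8.76, 8.61 and 8.59 on replicates 2 to 4. Replicate 2 was the highest of the 12 arrays in 0 of these 8 genes. XY FOXL2+ replicate 1 was the highest of the 12 arrays in 41 of the 63 genes and replicate 2 in 12, against 13.6% and 6.37% of all clusters for these arrays. Replicate 4 was the lowest array in 25 (39.7%), against 4.57% of all clusters.

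Of 15 genes of the red cell membrane and surface none passed between XY FOXL2+ and XY controls (4 at an unadjusted p under 0.05). Their median difference was 0.72, where the median of all clusters was 0.003. Ermap, an erythroid membrane protein, read 12.93, 10.79, 7.94 and 7.28 in XY FOXL2+ replicates 1 to 4 against 7.45 to 8.70 in XY controls (1.77, SE 0.96, adjusted p = 0.34). Rhag, the Rh-associated glycoprotein, read 12.75, 10.94, 7.67 and 6.28 against 6.96 to 8.70 (1.60, adjusted p = 0.465). On both, replicates 1 and 2 were above all controls and replicates 3 and 4 were not. Between XX and XY controls Xk was higher in XX (0.83, adjusted p = 0.0307) and Slc2a4 lower (-0.29, 0.02).

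Of 14 genes of heme synthesis and iron uptake Tfrc, the transferrin receptor that brings iron into dividing cells, rose in XY FOXL2+ (1.53, adjusted p = 0.0457), with a list median of 0.39. It read 13.48, 13.15, 11.43 and 11.12 against 10.58 to 10.87 in XY controls, with no overlap. Over all clusters 5.23% were apart in this direction. Its call ended without any single one of 10 arrays, 2 of them being XY FOXL2+ replicates 1 (adjusted p = 0.0842) and 2 (0.123), and in the fit on the 2 groups alone (0.134). Hebp1, a heme-binding protein, did not pass (1.09, adjusted p = 0.191), at 10.21 on replicate 1 and 7.54 to 8.30 on the others. In XX against XY controls Tfrc was higher (1.62, adjusted p = 0.0171) and Abcb10, a mitochondrial transporter of the heme pathway, lower (-0.88, 0.0144). Abcb10 was the 1 gene of the list that passed between XY FOXL2+ and XX controls (0.86, 0.0404), and that call ended without XY FOXL2+ replicate 1 or 2.

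Of 12 genes for erythroid transcription factors or the erythropoietin receptor, Runx1 alone passed in XY FOXL2+ (1.22, adjusted p = 0.0115), and Runx1 is also made by granulosa cells. Its call ended in the fit on the 2 groups alone (0.0508). The list median was 0.69, and 6 had an unadjusted p under 0.05, a threshold for which the share of all clusters was not counted. Klf1, which switches on adult beta globin, read 10.43 and 8.01 in XY FOXL2+ replicates 1 and 2, 6.69 and 6.47 in replicates 3 and 4, and 6.40 to 6.90 in XY controls (1.31, adjusted p = 0.299). Gata1, the main erythroid GATA factor, read 7.83, 7.34, 6.29 and 6.11 against 6.15 to 6.42 (0.63, adjusted p = 0.276). Ikzf1, a factor of blood progenitors, read 10.07, 7.91, 6.97 and 6.90 against 6.63 to 6.89 (1.25, adjusted p = 0.196). XX controls were above XY controls in Runx1 (2.68, adjusted p = 1.66e-05), Gata2 (1.44, 7.18e-05) and Ldb1 (0.36, 0.00565). Runx1 and Gata2 were lower in XY FOXL2+ than in XX controls (-1.46, 0.00562, and -1.01, 0.00419).

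Of 8 regulators of globin switching 2 rose in XY FOXL2+, Bcl11a (0.94, adjusted p = 0.0285) and Sox6 (0.50, 0.00604), which together repress embryonic globin genes in later red cells. Sox6 read 9.03 to 9.43 against 8.57 to 8.76 in XY controls and 8.25 to 8.31 in XX controls, and it was higher than in XX controls as well (0.89, adjusted p = 0.000264). Bcl11a read 9.09, 7.65, 8.17 and 7.91 against 7.12 to 7.38, and its call ended without each of the 4 XY controls (adjusted p 0.0519 to 0.0835) and with the 2 groups alone (0.0891). The list median was 0.35, and over all clusters 2.46% passed as higher in XY FOXL2+ than in XY controls. Against XX controls Bcl11a was higher too (0.87, 0.0498). Between XX and XY controls Lin28b (0.82, 0.00692) and Nr2c1 (0.26, 0.0404) were higher and Sox6 lower (-0.39, 0.0111). Both Bcl11a and Sox6 are also active outside blood, and the cells that carried these signals were not identified. Myb, a factor of early blood progenitors, read 10.44 on XY FOXL2+ replicate 1 but 7.0 on replicate 2 and 6.39 and 6.48 on the other arrays of the group (0.71, adjusted p = 0.625).

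**Figure D5:**
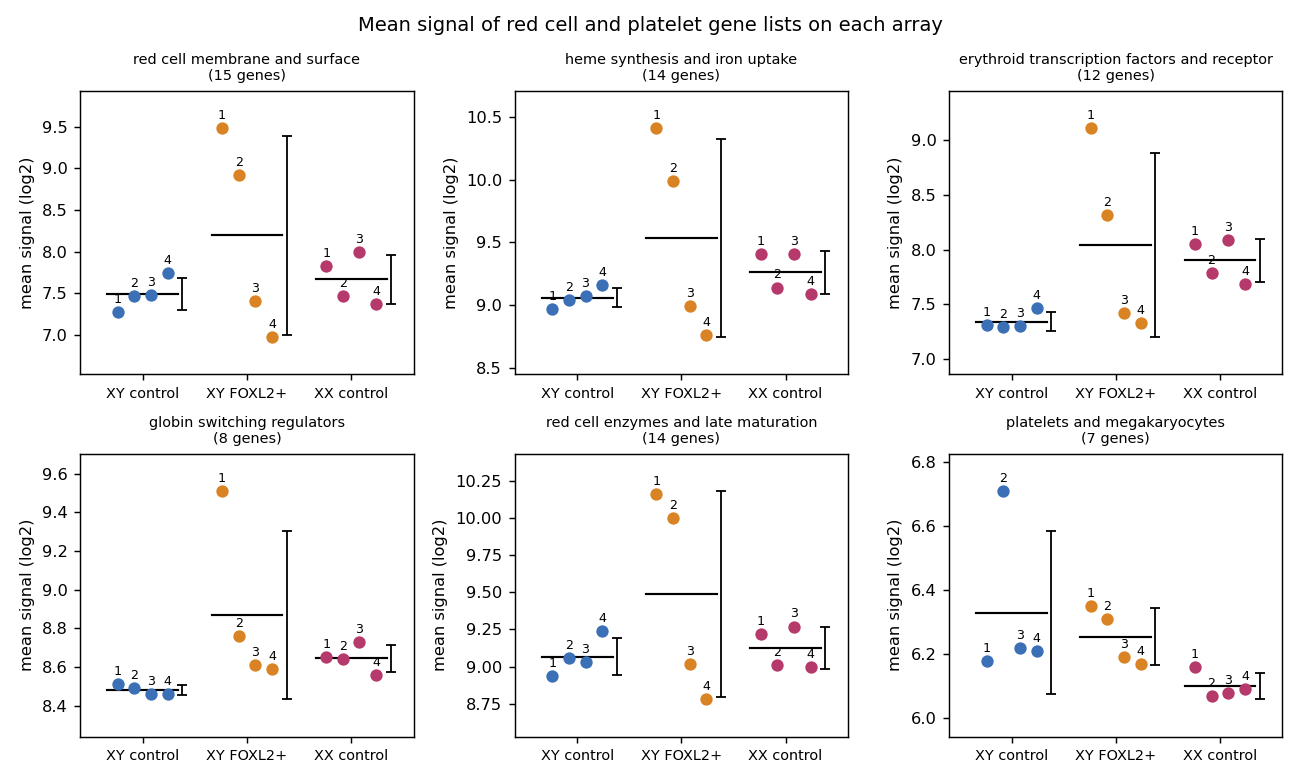
Mean signal (log2) of 5 red cell gene lists and of platelet genes on each array, with replicate numbers, group means (lines) and SD (bars, n = 4). XY FOXL2+ replicates 1 and 2 are above all other arrays in the 5 red cell lists, and replicate 1 is the highest. For the globin switching regulators replicate 2 is barely above (8.76 against 8.73 on XX control replicate 3).

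Of 14 red cell enzymes and genes of late maturation Bpgm, which makes the bisphosphoglycerate that lowers the oxygen affinity of hemoglobin, rose in XY FOXL2+ (0.33, adjusted p = 0.0215), with a list median of 0.28. Its call ended without XY FOXL2+ replicate 2 (0.0548) or XY control replicates 1 (0.0672) or 2 (0.0516), and in the fit on the 2 groups alone (0.0898). Car2, carbonic anhydrase 2, read 15.34, 14.25, 10.80 and 9.26 against 9.76 to 11.67 in XY controls (1.67, adjusted p = 0.427). Hemgn, an erythroid nuclear protein, read 10.78, 10.39, 8.17 and 7.45 against 7.65 to 8.68 (1.16, adjusted p = 0.331). Which of the 2 high arrays led differed by gene. Replicate 1 led in Klf1, Ikzf1, Myb, Rhag, Ermap, Car2 and Hemgn, and replicate 2 in Slc4a1, Alas2, Epb42 and adult globin. Of the 14 genes of this list replicate 1 was the highest of the 12 arrays in 7 and replicate 2 in 6.

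Markers of other cells did not all move with these arrays. The mean of 7 platelet and megakaryocyte genes ran from 6.17 to 6.35 in XY FOXL2+, within the XY control range of 6.18 to 6.71 apart from the lowest array. The 6.71 was XY control replicate 2 alone, and the other XY controls read 6.18 to 6.22. XY FOXL2+ replicates 1 to 4 read 6.35, 6.31, 6.19 and 6.17. Several of the 7 genes, such as Itga2b (6.05 in XY controls) and Treml1 (5.42), read near or below the Y-linked clusters in XX gonads (5.99 to 6.27). This mean therefore cannot show whether platelet content changed. Of these, Vwf, which endothelial cells make too, fell in XY FOXL2+ (-0.94, adjusted p = 0.00153). Gp5, a platelet glycoprotein, did read higher on XY FOXL2+ replicates 1 and 2 (7.03, 6.39, 5.30 and 5.58 against 5.03 to 5.40) and did not pass (0.85, adjusted p = 0.11). Over all clusters 2.46% passed as higher in XY FOXL2+ than in XY controls. Of 13 macrophage and leukocyte genes 4 rose: C1qb (0.74, 0.0137), Mrc1 (0.55, 0.00568), Adgre1 (0.37, 0.00611) and Csf1r (0.36, 0.0268). The mean of the 13 was 7.43, 7.18, 7.35 and 7.38 on the XY FOXL2+ arrays against 6.93 to 7.17 in XY controls. Of 11 endothelial genes 3 rose, Emcn (0.76, 0.022), Cldn5 (0.73, 0.00739) and Ramp2 (0.54, 0.0253), with means of 9.42, 9.23, 9.29 and 9.34 against 9.0 to 9.20. The mean of each list was above all XY controls on all 4 XY FOXL2+ arrays, but barely on replicate 2 (7.18 against 7.17, and 9.23 against 9.20). It did not divide replicates 1 and 2 from 3 and 4. The lists were not uniform: Cdh5 and Sox17 (-0.19 each) and Esam (-0.07) read lower. Pecam1 (0.06), Cd68 (0.05) and Cx3cr1 (0.08) changed little, and the remaining genes of both lists read higher. None of the genes that read lower or changed little passed. The calls of Csf1r, C1qb, Emcn and Ramp2 each ended without single arrays (adjusted p up to 0.0859). Against XX controls 4 of the 13 and 4 of the 11 passed as higher in XY FOXL2+, where 2.87% of all clusters did. Between XX and XY controls 4 of the 11 endothelial genes were lower in XX and 1 higher. Of the 13 macrophage and leukocyte genes 2 were lower and 1 higher. Over all clusters 10.2% were lower and 7.17% higher.

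Hepatocyte genes, a list added after the values were seen because the fetal liver makes red cells, were not high on XY FOXL2+ replicates 1 and 2. None of 11 passed between XY FOXL2+ and XY controls (0 at an unadjusted p under 0.05), and their mean was 5.73 and 5.66 on these arrays, against 5.66 to 6.00 in XY controls. These means lie near or below the Y-linked clusters in XX gonads (5.99 to 6.27), so they cannot show whether hepatocyte content differed. The highest was 6.54, on replicate 3, where Alb read 10.49 against 6.34 to 6.95 on the other 3 XY FOXL2+ arrays. Alb also read 8.45 on XY control replicate 1, the array with the mean of 6.00, against 6.63 to 7.06 on the other XY controls. Ahsg was lower in XX than in XY controls (-1.10, adjusted p = 0.00171) and higher in XY FOXL2+ than in XX controls (1.19, 0.00418). Among the XY FOXL2+ arrays, replicates 1 and 2, with the high red cell signals, had the highest Foxl2. They also lay nearer to XX controls on the first component. Between these 2 the order was not the same: replicate 2 had more Foxl2 (8.62 against 7.67) and lay nearer to XX (-39.1 against -20.3). Replicate 1 was the highest array in 41 of the 63 red cell genes and replicate 2 in 12. The erythroid factor list averaged 7.69 to 8.09 in XX controls, 7.29 to 7.47 in XY controls and 9.11, 8.32, 7.42 and 7.33 in XY FOXL2+. The part of the array's sex position in the red cell signal was not tested.

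Of 17776 genes with a single symbol and a signal above the median, those whose variation within groups was most like the mean of the 6 genes were Tnfrsf19 (r = 0.974), Stxbp2 (0.971), Nlk (0.967), E2f2 (0.966), Atp13a3 and Trim10 (0.960 each), Magi1, Slc22a4 and Mtg1 (0.959 each) and Grip1 (0.958). Tnfrsf19 (5.62), Stxbp2 (0.85), Nlk (1.21), Atp13a3 (1.40), Magi1 (1.35) and Grip1 (1.26) also passed as higher in XX than in XY controls. E2f2, Trim10, Slc22a4 and Mtg1 did not, and over all clusters 7.17% passed in this direction. The r of these genes describe 12 arrays with group means removed, whose tissue make-up all genes of an array share. After the values had been seen, the same was done for each set. Nearest to the 3 embryonic globins were Ikzf5 (0.976), Top2b (0.969) and Gm12551 (0.968), and the tenth was Hbb-bh0 (0.940), another cluster of the beta globin locus. Hbb-bh0 read 10.45, 11.20, 9.54 and 9.25 in XY controls, 10.23, 9.58, 9.25 and 8.89 with the FOXL2 transgene, while XX controls read 10.82, 11.09, 11.11 and 10.59. It too was lower in XY FOXL2+ than in every XX array (-1.42, adjusted p = 0.0471), and 4.82% of all clusters were apart in this direction. Hbb-bh0 was picked by its likeness to the embryonic globins, and whether its call holds in other fits was not tested. Nearest to Alas2, Slc4a1 and Epb42 were Cdc25b (0.977), Pnck (0.968) and Tmod1 (0.967), with the mitochondrial iron importer Slc25a37 at 0.955 and the membrane skeleton gene Dmtn at 0.950.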

How the data were processed

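Signals per transcript cluster were used as the authors deposited them in their value table, taken as log2 from their range of 2.60 to 19.49; no source used here gives the log base or the normalization. Of 72688 entries 6732 control probe sets were left out and 65956 clusters tested. Genes were named from the platform annotation where a cluster had 1 symbol (31258 clusters; 1492 had several and 33206 were not listed), with 2078 older symbols updated.

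Groups came from the labels, with 4 arrays each. One limma model (version 3.58.1, R 4.3.3; lmFit, eBayes with intensity trend) was fitted to all 12 arrays, and p-values were adjusted by Benjamini-Hochberg over all clusters, with a threshold of 0.05. Single genes also had an exact two-sided permutation test (70 assignments, smallest p 0.0286). Correlations used 100000 permutations. The limma step was tested on simulated data. Arrays are separate gonad pairs, nothing ties them to litters, and p-values measure only the spread between these arrays. The number of arrays limits the precision.

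The genes and lists were chosen with earlier results of these data known. From each list the text names the genes that passed between XY FOXL2+ and XY controls and the 2 with the largest difference, and the 10 genes nearest to the mean of the 6. In the gonad and sex checks Foxl2 passed as higher. Sox9 (-1.08), Amh (-5.48), Cyp11a1 (-8.15) and Nr5a1 (-1.68) passed as lower. Hbb-bh2 (0.16), listed with the adult globins, and Apoa1 (0.35), a hepatocyte gene, were among the 2 largest of their lists and did not pass. Others it names (Gata1, Alb, and list genes that passed only in the other comparisons) were chosen after their values were seen. Alternatives were other fits, scalings, filters, array weights, a replicate block and leaving out arrays.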

Additional observations from a re-analysis of the deposited data

Results flagged for a closer look

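In 18 groups of 4 arrays (6 genes in 3 groups) 2 arrays lay apart from the others of their group by Dixon's test, which flags about 1 group in 20 by chance. Hbb-bh1 in XX control replicate 1 read 6.21, against 6.86 to 6.89 on the other arrays of that group. Alas2 in XX control replicate 2 read 9.65, against 10.05 to 10.11.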

How the results depend on the processing

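Between XY FOXL2+ and XY controls Alas2 turned to -0.18 with array weights and ranged from -0.49 to 0.34 when single arrays were left out, Hbb-bh1 turned to -0.10 and ranged from -0.13 to 0.18, and Slc4a1 ranged from -0.10 to 1.51. Without both XY FOXL2+ replicates 3 and 4, an alternative chosen after seeing the data, Hba-x was 0.0286, and 2 of the 6 genes passed as higher against XY controls and 2 against XX controls (Slc4a1 and Epb42). The arrays left out there are the lowest of their group in these 2 genes, so those counts support nothing. Between XX and XY controls Epb42 ranged from -0.0033 to 0.22 and Slc4a1 from -0.42 to 0.0846 without single arrays. In that comparison 1 gene passed as higher with array weights (Hba-x), and 1 as lower in the fit on those groups alone (Alas2; 0 to 1 without single arrays). Between XY FOXL2+ and XX controls 2 passed as lower (Hba-x and Hbb-y) with array weights or the filter on signal, and 0 to 2 without single arrays. Clusters higher and lower between XY FOXL2+ and XY controls were 1621 and 3077, 809 and 1891 on those groups alone, 3055 and 5263 without both replicates, and 998 to 1938 and 2126 to 3670 without single arrays. Between XY FOXL2+ and XX controls they were 1891 and 1744, 944 and 972 on those groups alone, 3668 and 3084 with array weights, 1013 and 842 without both replicates, and 980 to 2967 and 1032 to 3025 without single arrays. Same-number arrays had correlations of -0.06 to 0.08 (XY FOXL2+ and XY controls), -0.09 to 0.00 (XX and XY controls) and 0.01 to 0.18 (XY FOXL2+ and XX controls). In the last, 3 of 4 arrays matched their own number best or in a tie, against 0 of 4 in the others. XY FOXL2+ replicate 3 was the tie, with 0.07 for both XX control replicates 3 and 4. Such matches are at most a hint from the data and not from the design. Not every correlation was over 0.1, so the numbers were not taken as pairs. With the replicate block Hba-x passed as higher in XX than XY controls (1 gene), and 2 genes passed as lower in XY FOXL2+ than XX controls. The causes were not tested. Hbb-bh1 reads near Y-linked clusters of XX gonads, which limits what its level shows.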
